A study of Arabidopsis thaliana with 21 samples.

Results

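AT5G44400, AT1G26390, AT1G26410 and AT1G26420 are 4 berberine bridge enzyme-like genes of Arabidopsis thaliana, each read by 1 probe set of the ATH1 array. This is a single-colour oligonucleotide array with 22810 probe sets, and in the platform annotation 13286 genes have a probe set to themselves. The 4 genes were chosen from measured signals: an earlier account of these data named them among genes brighter in the later than in the earlier roots grown on GM plates, with or without sucrose. Those 2 stage differences are therefore given as a description, without a test. No other probe set with a single annotated gene stood for these loci, and all 4 were described over 21 root arrays in 7 groups of 3.

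Berberine bridge enzyme-like proteins are flavin-linked oxidases that are mostly secreted or enter the secretory pathway. They are named after the enzyme of poppies and their relatives that closes the berberine bridge in alkaloid synthesis, a pathway Arabidopsis lacks. Members studied in Arabidopsis oxidise cell-wall oligosaccharides, monolignols (the alcohols from which lignin is made) or an indole compound of a defence pathway, and several are known to respond to elicitors and pathogens. No substrate is given here for the 4 genes described.

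All plants were accession Col-0 and carried no labelled mutation or transgene, and total RNA was taken from whole roots. ATGE_3 and ATGE_9 were roots of soil-grown plants in continuous light at 23 °C and 65% humidity, and soil was noted in the ATGE_3 tissue. ATGE_94 and ATGE_98 grew on 0.5x GM, a plate medium, and ATGE_95 and ATGE_99 on 0.5x GM with 5% sucrose, all in continuous light at 20 °C. The medium of ATGE_93 was 1x MS with 1% sucrose, and its plants had long days and 22 °C. Most plants of ATGE_94 and ATGE_95 were likened in the labels to 7-day-old reference plants. The labels do not state harvest times for the rest: that ATGE_9 was harvested after ATGE_3, and ATGE_98 and ATGE_99 after ATGE_94 and ATGE_95, is known from the AtGenExpress developmental series, and "earlier", "later", "younger" and "older" rest on that. Stage thus coincided with a separate set of plants, soil and plates also differed in temperature, and MS plates also differed from the others in photoperiod and temperature. The labels do not say whether the 3 arrays of a group came from separate cultures, so p-values measure the spread between these samples only.

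Values are MAS5 signals, a linear brightness on which each array had been scaled to a common trimmed mean. The median signal of an array was between 38.7 and 45.2. Each array's 40th percentile, between 22.9 and 28.0, was used as the limit of a dim signal. Where all 3 arrays of a group were dim, a fold is given as "at least", with the dim arrays set at that limit, and no fold is given where both groups were dim. Of 10 root markers listed, 3 had a probe set annotated to them alone, and none of the 3 was at 0 on any array. These were EXPA7 and EXPA18, expansins of root hairs, and SCN1, which acts in root hair placement. The number of arrays limits the precision of every value.

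AT5G44400 was brightest in the younger soil roots. Its signals there were 472.0, 520.1 and 523.2 (505.1 ± 28.7, mean ± SD, n = 3). In the older soil roots they were 184, 173 and 151 (170 ± 16.7). The soil groups did not overlap. Long-day MS roots gave 173, 168 and 183 (175 ± 7.57), inside the range of the older soil roots. On plain GM the earlier roots gave 14.4, 15.1 and 12.8 (14.1 ± 1.18), all dim, and the later roots 132, 145 and 143 (140.0 ± 7.06). On GM with sucrose the earlier roots gave 26.9, 31.8 and 31.2 (30.0 ± 2.65) and the later roots 162, 163 and 171 (165 ± 4.74). The means therefore ran from ATGE_3 down through ATGE_93, ATGE_9, ATGE_99, ATGE_98 and ATGE_95 to ATGE_94. The arrays of ATGE_93, ATGE_9 and ATGE_99 overlapped, while every other pair of neighbours in this order was separate. Quantile normalization and median centring gave the same order.

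AT1G26390 was brightest on long-day MS, with signals of 126, 117 and 112 (118 ± 7.10, n = 3). Later roots on GM with sucrose gave 58.7, 66.5 and 54.9 (60.04 ± 5.94), and later roots on plain GM gave 41.8, 38.5 and 39.5 (39.9 ± 1.70). These 3 groups did not overlap, and they were the only ones above the dim limit. Younger soil roots gave 10.3, 11.3 and 9.35, and older soil roots 5.98, 3.70 and 4.40. Earlier GM roots gave 4.50, 2.81 and 7.30 without sucrose and 7.13, 8.10 and 7.99 with it. All 12 arrays of these 4 groups were dim, and the order of ATGE_9 and ATGE_94 at the bottom turned with the scaling.

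AT1G26410 was brightest in the later GM roots. Its signals were 37.3, 35.4 and 36.4 (36.4 ± 0.909, n = 3) without sucrose and 41.6, 32.6 and 43.4 (39.2 ± 5.77) with it, and these groups overlapped. Long-day MS roots gave 21.6, 24.1 and 24.9 (23.5 ± 1.71), below both later GM groups, with 2 of the 3 arrays above the dim limit. The other 4 groups were dim throughout. Younger soil roots gave 0.840, 1.52 and 1.21, and older soil roots 1.52, 0.991 and 1.28. Earlier GM roots gave 1.20, 8.68 and 2.74 without sucrose and 5.05, 4.68 and 14.6 with it, a wide scatter within each group.

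AT1G26420 followed the same division of groups. Later GM roots gave 42.8, 45.9 and 46.6 (45.1 ± 2.02, n = 3) without sucrose and 47.0, 44.0 and 39.1 (43.4 ± 4.01) with it. These groups overlapped, and both lay above long-day MS roots at 31.7, 30.3 and 36.3 (32.8 ± 3.16). Everything else was dim. Younger soil roots gave 0.616, 0.966 and 0.226, and older soil roots 1.26, 2.67 and 0.809. Earlier GM roots gave 13.5, 11.1 and 2.54 without sucrose and 5.00, 7.44 and 1.58 with it. AT1G26390, AT1G26410 and AT1G26420 reached the filter for testing only through arrays of ATGE_93, ATGE_98 and ATGE_99 (9, 8 and 9 arrays), so a difference of these groups from the dim ones follows in part from the filter.

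**Figure D1:**
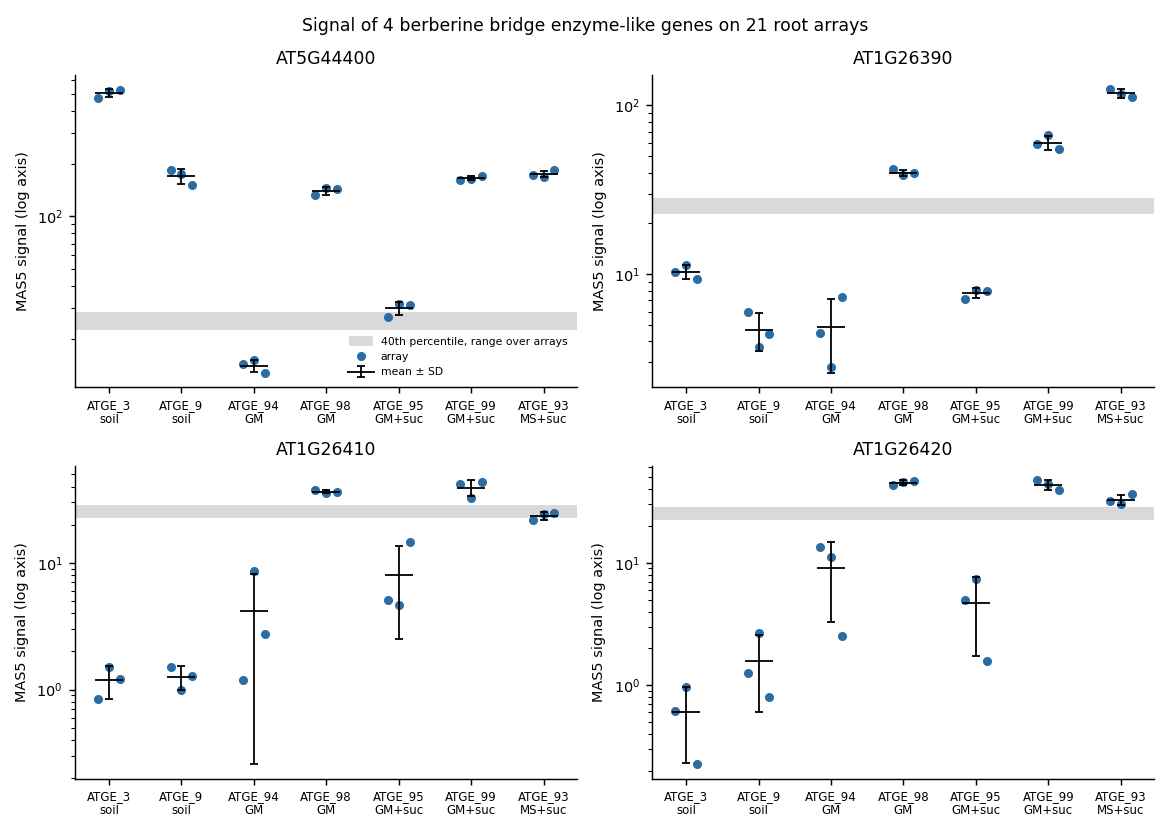
MAS5 signal (log axis, a separate scale per panel) of the 4 genes on every array, by group. Points are arrays, black lines are means ± SD (n = 3), and the grey band is the range of the arrays' 40th percentiles (22.9 to 28.0). AT5G44400 stands highest in ATGE_3, while the soil arrays of the AT1G26390, AT1G26410 and AT1G26420 panels all lie under the band.

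The contrasts that chose the genes are described first. From earlier to later roots on plain GM, all 3 later arrays exceeded all 3 earlier ones for each gene, where 25.5% of the 15284 probe sets tested were higher without overlap and 22.8% lower. AT5G44400 was at least 5.85-fold higher, AT1G26390 at least 1.67-fold, AT1G26410 at least 1.52-fold and AT1G26420 at least 1.88-fold. On GM with sucrose the later arrays again exceeded the earlier ones for each gene, against 32.3% of probe sets higher without overlap and 23.3% lower. AT5G44400 was 5.52-fold higher (30.0 against 165), AT1G26390 at least 2.55-fold, AT1G26410 at least 1.66-fold and AT1G26420 at least 1.85-fold. These separations were the basis of the choice and carry no test.

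Comparisons outside the choice used a model over all tested probe sets (limma, with Benjamini-Hochberg adjustment of the p-values of a comparison). Older against younger soil roots and long-day MS against older soil roots used only arrays that took no part in the choice. The other 5 comparisons shared arrays with the contrasts that chose the genes. Each log2 difference below is given ± its standard error. In these samples of whole roots, fewer cells of a type and less RNA per cell cannot be told apart.

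In soil, AT5G44400 fell from the younger to the older roots. Its signal in older soil roots was 2.98-fold lower than in younger ones (log2 difference -1.58 ± 0.09, limma adjusted p = 3.1e-12), where 15.3% of probe sets passed as lower and 11.4% as higher. Centring arrays on their medians instead put 11.6% lower and 14.0% higher. The younger tissue carried soil. A measure of RNA integrity is the ratio of the 3' to the 5' control probe set. For GAPDH it was 1.38 ± 0.06 in ATGE_3 and 1.17 ± 0.04 in ATGE_9, and for actin 2.38 ± 0.10 and 1.76 ± 0.14. The part of soil and RNA integrity in the result was not tested. On plates the later roots were the brighter ones for this gene, as described above, and the difference between soil and plates was not tested. AT1G26390, AT1G26410 and AT1G26420 were dim in both soil groups, so no direction is given for them.

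AT1G26390, AT1G26410 and AT1G26420 passed as higher in long-day MS than in older soil roots. They reached the filter only through arrays of ATGE_93, ATGE_98 and ATGE_99. A bright MS group beside a dim soil group thus follows in part from the filter. AT1G26390 was at least 4.68-fold higher on MS (log2 difference 4.68 ± 0.26, limma adjusted p = 1.5e-13) and AT1G26420 at least 1.30-fold higher (4.55 ± 0.64, adjusted p = 1.5e-06). AT1G26410 was also higher on MS (4.24 ± 0.55, adjusted p = 5.4e-07), but its MS arrays lay so close to the dim limit (1 of 3 below it) that the fold bound did not reach 1 and none is given. AT5G44400 did not pass, with a difference of 0.05 ± 0.09 (adjusted p = 0.66) and overlapping arrays. Over all probe sets 26.9% passed as higher and 38.9% as lower, or 32.4% and 31.1% with median centring, which moved the median of all probe sets from -0.12 by 0.12. Green shoot markers summed to 237 to 273 on MS against 79.3 to 84.8 in older soil, root markers to 873 to 947 against 447 to 467, and the GAPDH 3' to 5' ratio was 0.98 ± 0.02 against 1.17 ± 0.04. Of the root markers, EXPA7 (208 against 32.1) and EXPA18 (343 against 32.1) were higher on MS, while SCN1 was not (365 against 395). The actin ratio was 1.38 ± 0.09 against 1.76 ± 0.14. The part of these in the differences was not tested.

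Sucrose was compared within each plate stage. In the earlier roots AT5G44400 was higher with sucrose, at 30.0 against 14.1. Because the plain GM arrays were dim, the fold was at least 1.25 (log2 difference 1.09 ± 0.09, limma adjusted p = 2.4e-09), beside 15.2% of probe sets higher and 19.2% lower (19.7% and 14.1% with median centring). With sucrose the earlier roots also had higher summed root markers (1183 to 1264 against 649 to 699) and lower summed green shoot markers (234 to 294 against 402 to 468). The 3' to 5' ratio was 2.81 ± 0.78 against 1.85 ± 0.43 for actin and 1.24 ± 0.16 against 1.09 ± 0.04 for GAPDH. The part of the markers and ratios in the result was not tested. The other members were dim on all 6 of these arrays. In the later roots no member passed. AT5G44400 was 1.18-fold higher with sucrose without overlap (0.24 ± 0.09, adjusted p = 0.057), and AT1G26390 stood at 60.04 with and 39.9 without sucrose, also without overlap (0.59 ± 0.26, adjusted p = 0.10). Both passed when only the 2 groups compared were fitted, at adjusted p = 0.034 for AT5G44400 and 0.0036 for AT1G26390. AT1G26410 (0.10 ± 0.55, adjusted p = 0.92) and AT1G26420 (-0.06 ± 0.64, adjusted p = 0.96) overlapped between the later groups. Over all probe sets, 12.7% passed as higher and 11.9% as lower in the later roots. Whether the sucrose difference of AT5G44400 changed with stage was not tested, since that contrast equals the difference between those that chose it.

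Soil roots were compared with plain GM roots, younger with earlier and older with later. The labels give no harvest times for the soil groups or ATGE_98, so these pairs may also differ in age. Younger soil roots were at least 21.1-fold higher than earlier plain GM roots in AT5G44400 (log2 difference 5.16 ± 0.09, limma adjusted p = 3.2e-22), where 35.1% of probe sets passed as higher and 30.4% as lower. The choice of AT5G44400 favoured a low signal in ATGE_94, so this difference and its p-value follow in part from the choice. The other 3 genes were dim in both groups. Older soil roots were 1.21-fold higher than later plain GM roots in AT5G44400 (0.27 ± 0.09, adjusted p = 0.011). That call was lost without ATGE_9 replicate A (0.21, adjusted p = 0.068) or ATGE_98 replicate A (0.23, adjusted p = 0.051). The same comparison gave lower soil levels of AT1G26390 (at least 1.59-fold, -3.12 ± 0.26, adjusted p = 2.3e-10), AT1G26410 (at least 1.45-fold, -4.87 ± 0.55, adjusted p = 5.4e-08) and AT1G26420 (at least 1.79-fold, -5.01 ± 0.64, adjusted p = 3.1e-07). Here 33.9% of probe sets passed as higher and 32.9% as lower. AT1G26390, AT1G26410 and AT1G26420 were chosen as brighter in ATGE_98 than in ATGE_94. They also passed the filter only through ATGE_93, ATGE_98 and ATGE_99. Their differences here follow in part from the choice and the filter, and their p-values are no separate support. Of 10 green shoot markers listed, 2 had a probe set annotated to them alone: LHCB4.1, a light-harvesting protein, and RCA, Rubisco activase. Their summed signal moved with the substrate. It was 83.2 to 88.4 in ATGE_3 and 79.3 to 84.8 in ATGE_9, against 402 to 468 in ATGE_94 and 505 to 548 in ATGE_98, and neither gene was at 0. The summed root markers were 447 to 474 in the soil groups, 649 to 699 in ATGE_94 and 492 to 535 in ATGE_98. EXPA7 and EXPA18 were lower in soil in both pairs. SCN1 was not: it overlapped in the earlier pair and was higher in ATGE_9 than in ATGE_98 (395 against 320). The GAPDH 3' to 5' ratio was 1.38 ± 0.06 in ATGE_3 against 1.09 ± 0.04 in ATGE_94, and 1.17 ± 0.04 in ATGE_9 against 1.13 ± 0.04 in ATGE_98. For actin it was 2.38 ± 0.10 against 1.85 ± 0.43, and 1.76 ± 0.14 against 2.07 ± 0.18. The part of either list or of RNA integrity in these differences was not tested.

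The sucrose plates of the later stage were set beside long-day MS. AT1G26390 was 1.97-fold higher on MS (log2 difference 0.98 ± 0.26, limma adjusted p = 0.0026), and 1.19 ± 0.26 with median centring. AT1G26410 stood at 23.5 on MS, with 1 of 3 arrays dim, against 39.2 (-0.73 ± 0.55, adjusted p = 0.27) and AT1G26420 at 32.8 against 43.4 (-0.41 ± 0.64, adjusted p = 0.61), and neither passed, although their arrays did not overlap. Fitted on these 2 groups alone, where the spread of the dim groups plays no part, AT1G26410 passed at limma adjusted p = 0.0017 and AT1G26420 at 0.020. The choice favoured a high signal in ATGE_99. The lower MS levels of AT1G26410 and AT1G26420 thus follow in part from the choice, and these p-values are no separate support. AT5G44400 did not pass (0.08 ± 0.09, adjusted p = 0.46), but passed with median centring (0.30 ± 0.09, adjusted p = 0.0077). Calls over all probe sets were 22.6% higher and 33.7% lower. This split depended on scaling: it was 27.5% and 25.8% with quantile normalization and 35.4% and 19.9% with median centring, which moved the median of all probe sets from -0.11 by 0.12 and 0.21.

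**Figure D2:**
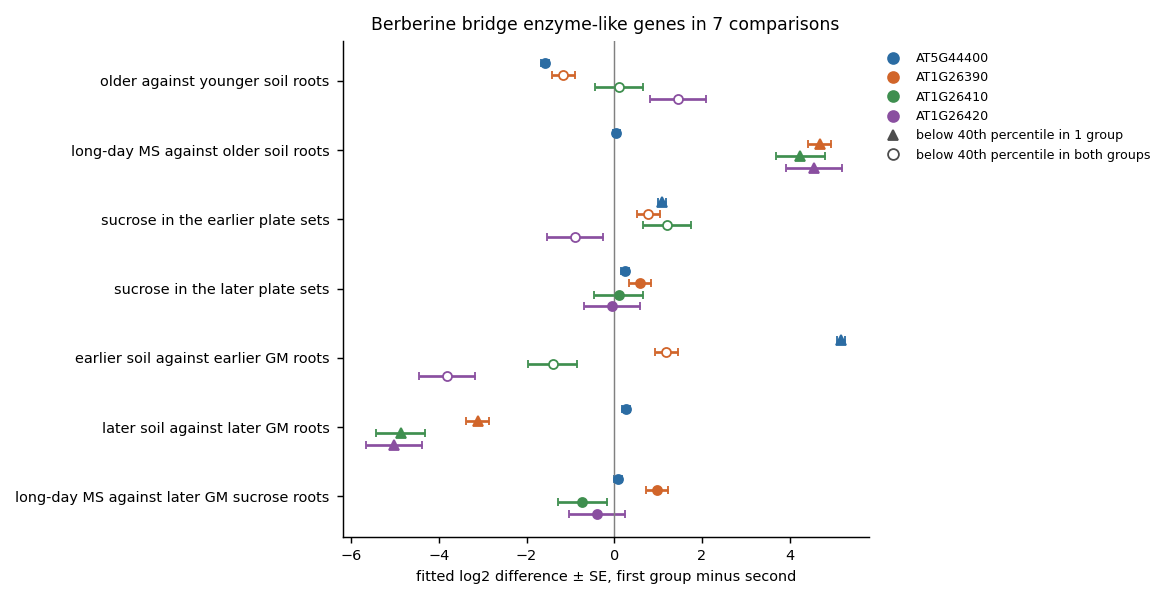
Fitted log2 difference ± SE (x axis, first group minus second) of the 4 genes in the 7 tested comparisons; triangles mark comparisons with 1 dim group, whose size is not firm and for which only the bounds in the text hold, and open circles those with both groups dim. AT5G44400 is the one gene with closed symbols in all 7 comparisons, and in long-day MS against older soil roots it lies close to 0 (0.05), while the other 3 genes are triangles to the right of 0.

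The 4 genes sit in tandem runs of the family. In the RefSeq annotation (TAIR10.1), AT1G26380, AT1G26390, AT1G26400, AT1G26410 and AT1G26420 are consecutive genes on chromosome 1, and AT5G44380, AT5G44390, AT5G44400 and AT5G44410 are consecutive on chromosome 5. Within the first run AT1G26400 stayed dim, between 0.236 and 7.13 on all 21 arrays. AT1G26380, known as FOX1, an enzyme that oxidises an indole cyanohydrin on the way to a cyanogenic defence compound, was 66.7 ± 6.09 in later GM roots and 34.0 ± 3.72 in later GM sucrose roots. It fell with sucrose (-0.97 ± 0.24, limma adjusted p = 0.0036), whereas its neighbours AT1G26390, AT1G26410 and AT1G26420 did not pass in that comparison. A difference between these neighbours was not tested. On long-day MS it was 96.2 ± 2.57, which was 2.84-fold above later GM sucrose roots (1.51 ± 0.24, adjusted p = 1.1e-05). Like the other 3 tested genes of this run it was dim in both soil groups (7.24 ± 1.05 and 7.69 ± 1.23).

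The chromosome 5 neighbours had other patterns. AT5G44380 was bright on every array and lowest in soil, with means of 496 ± 10.7 in ATGE_3 and 476 ± 48.4 in ATGE_9. It reached 1149 ± 82.9 in ATGE_94 and 1115 ± 22.1 in ATGE_98, where soil was 2.31-fold lower in the earlier pair and 2.35-fold lower in the later pair. AT5G44390 was 2.52-fold higher with sucrose in the earlier GM roots (49.3 ± 2.20 against 20.0 ± 5.57, limma adjusted p = 4.0e-06) and did not pass in the later ones (44.3 ± 2.15 against 46.3 ± 0.711, adjusted p = 0.84). Only 1 of its 3 arrays in ATGE_94 was above the dim limit, so the size of that fold is not firm. AT5G44410 was lower with sucrose at both stages, 1.67-fold in the earlier and 1.64-fold in the later roots. Thus the gene beside AT5G44400 on one side rose with sucrose in the earlier roots while the one on the other side fell.

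Over the 21 arrays, which share the same 7 groups, the log2 signals of the chromosome 1 genes were positively correlated. Pearson's r was 0.79 for AT1G26390 and AT1G26410 (Spearman's rho 0.67), 0.71 for AT1G26390 and AT1G26420 (rho 0.58) and 0.86 for AT1G26410 and AT1G26420 (rho 0.85). AT1G26380 had r of 0.83, 0.84 and 0.87 (rho 0.72, 0.75 and 0.82) with AT1G26390, AT1G26410 and AT1G26420. On chromosome 5, AT5G44400 had r of -0.65 with AT5G44380 (rho -0.83), -0.19 with AT5G44390 (rho -0.42) and 0.02 with AT5G44410 (rho -0.21). Against the other members it had r of 0.41 (AT1G26390, rho 0.34), -0.01 (AT1G26410, rho -0.18) and -0.15 (AT1G26420, rho -0.27). These correlations are descriptions and include arrays on which a gene was dim. AT1G26390, AT1G26410 and AT1G26420 were all chosen as brighter in the later than in the earlier GM roots. They also reached the filter only through long-day MS and later GM arrays. Their positive correlations with each other thus follow in part from the choice and the filter. AT1G26380 was not chosen but was also dim on all soil arrays. Its correlations with AT1G26390, AT1G26410 and AT1G26420 thus follow in part from the filter.

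The wider family list had 27 loci, of which 22 had a probe set annotated to them alone. Of these 22, 8 were dim on every array (AT1G11770, AT1G26400, AT1G30710, AT1G30740, AT1G34575, AT4G20800, AT5G44360 and AT5G44440, with no signal above 12.9). The other 14 were tested, 10 of them besides the members. Older soil roots were lower than later plain GM roots in 9 of the 10 and higher in 0, against 32.9% and 33.9% of all probe sets, with a median log2 difference of -1.85 against 0.00065 over all probe sets. Quantile normalization and median centring gave the same counts. For AT1G26380, AT2G34810 and AT5G44390, which were dim on all soil arrays, this follows in part from the filter, and AT2G34810 was dim in the later GM roots too. The 5 genes bright on all 6 soil arrays were AT1G30700, AT1G30760, AT4G20830, AT4G20860 and AT5G44380, and all but AT1G30760 were lower in soil, AT5G44380 by the 2.35-fold given above. AT1G30700 fell 15.6-fold below its GM level (32.6 ± 3.87 against 507 ± 23.7, limma adjusted p = 3.8e-20). AT4G20860, known as CELLOX, an oxidase of cellulose fragments, was 6.29-fold lower (88.3 ± 7.17 against 554 ± 18.8). AT4G20830, known as OGOX1, an oxidase of oligogalacturonides from pectin, was 1.32-fold lower (354 ± 22.7 against 468 ± 30.7, adjusted p = 0.00094). AT1G30760, an enzyme shown to oxidise monolignols, did not pass (65.9 ± 4.18 against 69.6 ± 21.7, adjusted p = 0.85). AT4G20820, above the dim limit on 2 of 6 soil arrays, was 3.45-fold lower (25.9 ± 3.09 against 88.9 ± 2.61).

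The same 10 genes were set between the earlier groups and within the soil. Younger soil roots were lower than earlier plain GM roots in 7 and higher in 1, against 30.4% and 35.1% of all probe sets (median -1.35 against 0.05). Leaving out 1 array of these groups gave 6 to 8 lower and 1 higher. AT1G26380 and AT2G34810, both lower, were dim on all soil arrays, so the count and median follow in part from the filter. AT4G20820, also lower, was dim on all ATGE_3 arrays. The gene that passed as higher was AT1G30760, at 53.3 ± 1.40 against 25.9 ± 1.96 (2.06-fold, limma adjusted p = 5.6e-06). AT5G44400 and AT1G30760 were thus the 2 tested family genes that were not dim in younger soil and passed as higher there than in earlier GM roots. Their r over 21 arrays was 0.71 (Spearman's rho 0.47). Those arrays include the ones of this comparison, so the correlation is a description only. From younger to older soil roots 2 of the 10 passed as higher (AT4G20820 and AT5G44410), 3 as lower and 5 did not pass (median 0.05 against -0.04), beside 11.4% of all probe sets higher and 15.3% lower. One of the 3, AT5G44390, was dim in both groups. AT4G20820, dim throughout ATGE_3, had arrays that overlapped between the soil groups. The call of AT4G20820 was lost without ATGE_3 replicate B (limma adjusted p = 0.059), ATGE_3 replicate C (adjusted p = 0.12) or ATGE_9 replicate A (adjusted p = 0.093), and without the last of these 0 genes were higher. Fitting the 2 soil groups alone also lost the call of AT4G20820 (limma adjusted p = 0.12). AT1G30700 fell 2.54-fold (82.6 ± 1.19 to 32.6 ± 3.87, adjusted p = 1.2e-10) and AT4G20860 1.52-fold (134 ± 2.49 to 88.3 ± 7.17, adjusted p = 3.1e-05), in the same direction as AT5G44400. AT5G44410 was 1.47-fold higher (limma adjusted p = 0.020). That call was lost without ATGE_3 replicate A (limma adjusted p = 0.13), ATGE_9 replicate A (adjusted p = 0.071) or ATGE_9 replicate B (adjusted p = 0.064).

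On long-day MS against older soil, 8 of the 10 were higher and 2 lower (median 1.39 against -0.12), beside 26.9% and 38.9% of all probe sets, or 32.4% and 31.1% with median centring. AT1G26380, AT2G34810 and AT5G44390, all higher on MS, were dim on all soil arrays. The count and median thus follow in part from the filter. AT1G30700 was 15.1-fold and AT4G20860 4.19-fold higher, while AT1G30760 was 1.64-fold and AT5G44410 at least 1.70-fold lower. Against later GM sucrose roots, long-day MS was higher in 3 and lower in 5 (median -0.19 against -0.11), or 4 and 4 with median centring, beside 22.6% and 33.7% of all probe sets. Leaving out any 1 array gave 2 higher, or 1 without ATGE_93 replicate B or ATGE_99 replicate C, as the calls of AT1G30700, AT2G34810 or both were lost. With sucrose in earlier GM roots, 3 were higher and 4 lower (median -0.05 against -0.03), beside 15.2% and 19.2% of all probe sets. These counts fell to 1 and 3 without ATGE_95 replicate B, to 2 and 2 without ATGE_94 replicate A or ATGE_95 replicate A, and to 2 and 4 without ATGE_94 replicate C. AT1G30700 was 1.65-fold lower there (limma adjusted p = 2.8e-06). With sucrose in later GM roots 4 were lower (median -0.07 against 0.01), beside 11.9% of all probe sets lower and 12.7% higher. The 1 gene that passed as higher, AT2G34810, was dim in both groups, and it did not pass with quantile normalization, with no filter or without any 1 array other than ATGE_98 replicate C. The count of lower genes was 3 or 4 when arrays were left out. AT4G20860 was 1.43-fold lower in this comparison (adjusted p = 0.00029). From earlier to later plain GM roots, a contrast used in the choice, the arrays were higher without overlap in 8 of the 10 and lower in 1 (AT2G34810), against 25.5% and 22.8% of all probe sets. With sucrose they were higher in 6 and lower in 3 (AT2G34810, AT5G44380 and AT5G44390), against 32.3% and 23.3%.

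**Figure D3:**
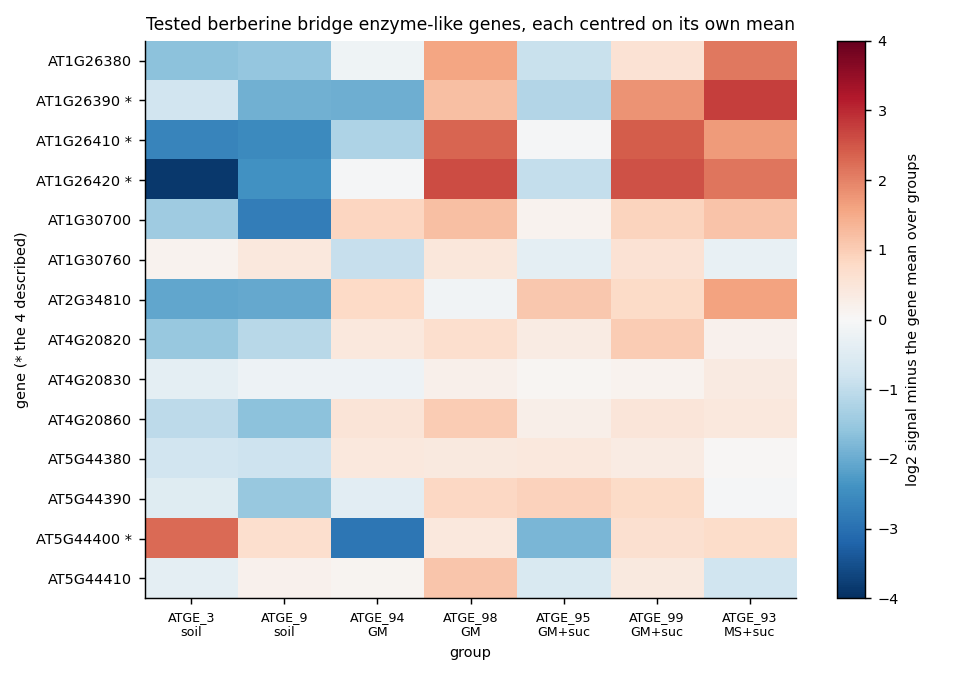
Mean log2 signal of the 14 tested family genes in the 7 groups, each row centred on its own mean over groups; an asterisk marks the 4 genes described. AT5G44400 is the row with its highest value in ATGE_3 and its lowest in ATGE_94, and the AT1G26380 to AT1G26420 rows are low in both soil groups; colour in rows of dim groups has no firm level behind it.

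For each gene the 5 probe sets most like it were taken by Pearson's r of log2 signal over 21 arrays, among 8291 tested probe sets with 1 gene. For AT5G44400 they were AT2G33850 (r = 0.99), AT5G14650 (0.98), AT1G03820 (0.98), AT4G36430 (0.96) and AT2G01610 (0.94). AT2G33850 went from 547 in ATGE_3 to 244 in ATGE_9, and from 30.2 in ATGE_94 to 221 in ATGE_98, as mean signals. It thus fell in soil and stood higher at the later plate stage, as AT5G44400 did. For AT1G26390 they were AT1G70810 (0.96), AT3G61160 (0.95), NANA (0.93), OSM34 (0.92) and AT3G18250 (0.91), of which OSM34 encodes an osmotin-like protein and NANA a chloroplast aspartyl protease. OSM34 was highest in ATGE_99 (2552) and not in ATGE_93 (2197), unlike AT1G26390. For AT1G26410 they were SGP1 (0.95), AT5G59530 (0.95), AT2G17760 (0.95), AT1G70880 (0.94) and AT3G48020 (0.94). For AT1G26420 they were AT1G05060 (0.95), AT2G47710 (0.94), AT2G20010 (0.94), AT4G04990 (0.93) and AT1G23440 (0.93). No gene stood in more than 1 of these lists. The choice of measure mattered: Spearman's rho kept 1, 3, 2 and 1 of the 5 in the order of the genes above, and Pearson's r over the 7 group means kept 3, 2, 3 and 3.

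**Figure D4:**
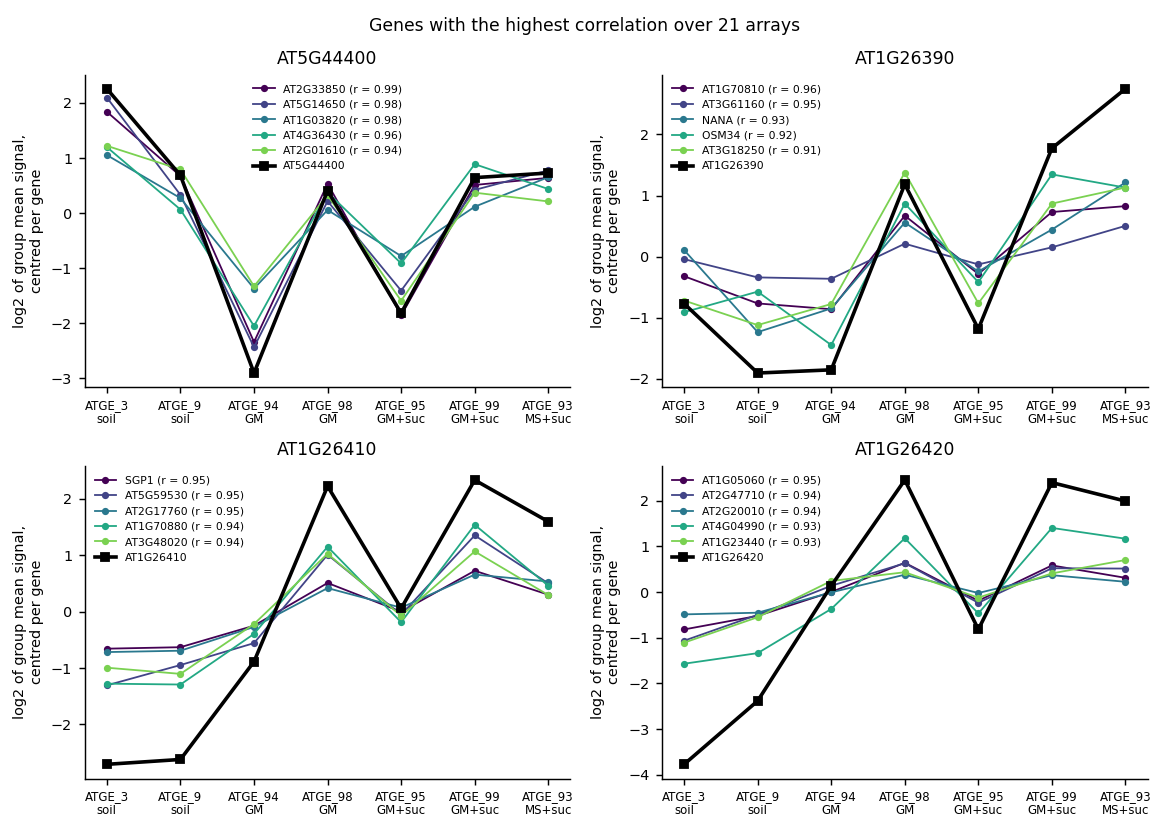
Log2 of the group mean signal, centred per gene, for each of the 4 genes (black squares) and the 5 genes with the highest Pearson's r over 21 arrays (coloured points), across the 7 groups. In every panel the black line spans a wider range than the coloured ones, and the 5 lines beside AT5G44400 (r 0.94 to 0.99) share its low points in ATGE_94 and ATGE_95.

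Other genes known to respond to elicitors or to act in pathways near the family were mostly without a probe set annotated to them alone. From younger to older soil roots WRKY53, a transcription factor of defence and senescence, was 3.13-fold higher (152 against 48.5, limma adjusted p = 1.4e-07), opposite in sign to AT5G44400. Of the 2 other elicitor-response genes with one (3 of 15), AT1G51850 was 1.27-fold lower (limma adjusted p = 0.017), and AT5G25930 did not pass (adjusted p = 0.80). The call of AT1G51850 was lost without ATGE_3 replicate B, ATGE_9 replicate A or ATGE_9 replicate C (adjusted p up to 0.10). The single gene of indole phytoalexin synthesis, CYP71B6 (1 of 12), did not pass (128 against 141, limma adjusted p = 0.13, or 0.033 without ATGE_9 replicate C), and neither did the single gene of lignin synthesis, HCT (1 of 16, adjusted p = 0.40). CYP71B6 was nevertheless 4.52-fold lower in older soil than in later plain GM roots. None of 8 salicylate-response genes had a probe set annotated to it alone. The annotation named no gene for 8730 probe sets, so the array may still hold probes for such genes.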

How the data were processed

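Biotin-labelled material from total RNA of 21 root samples was read on ATH1 arrays. The deposited intensity values are linear signals that the authors made with MAS5, per the submitters' processing notes; no version of it is stated. On every array the mean without the outer 2% of values was close to 100, and this scaling was kept. Of 22810 probe sets, 64 controls were left out; 13513 had 1 gene in the platform annotation, 503 several and 8730 none, and genes were named only from the first kind.

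A probe set had to exceed the 40th percentile of its array on 3 or more of the 21 arrays, which left 15284 probe sets, 8331 with 1 gene. Log2 signals, with no pseudocount, were fitted with a mean per group in limma 3.58.1 (R 4.3.3; lmFit, contrasts.fit, eBayes with trend). There were 14 residual degrees of freedom. Two-sided tests were used, with Benjamini-Hochberg adjustment within each of 7 comparisons and a threshold of 0.05. The scripts were tested on simulated data. Python 3.11.15 with pandas 2.3.3 made the tables and matplotlib 3.10.9 the plots.

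The members, gene lists and tests were chosen with earlier results of these data known. Named genes were the 4 members, family genes whose arrays separated in a comparison that passed, the 5 probe sets most correlated with each member, and up to 3 genes of each other list. A few family genes that did not pass or overlapped were named for contrast after their values were seen, as were levels of CYP71B6 outside the soil comparison. Dim groups are those whose arrays all lay below their 40th percentiles. Replicate letters did not pair samples. Alternatives were quantile normalization, median centring, a pseudocount of 6.99, a fit with no intensity trend, a fit of the 2 groups compared alone, a block for the replicate letter, the filter dropped or raised to the 60th percentile, and leaving out each array in turn. Searches of promoter and protein sequence were not run.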

Additional observations from a re-analysis of the deposited data

Results flagged for a closer look

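AT5G44400, AT1G30700 and AT4G20860 were lower on every older than on every younger soil array and higher on every later than on every earlier GM array, with and without sucrose. For AT5G44400 the soil difference minus the plate difference was -4.889 on plain GM and -4.043 on GM with sucrose, as log2 values. The first rests on ATGE_94, where AT5G44400 was dim on all 3 arrays. With those arrays at their dim limit it is -4.12, and the size is at least that. For AT1G30700 it was -1.685 and -2.092, and for AT4G20860 -1.098 and -0.8562. These differences between soil and plates were not tested, and the plate contrasts are the ones from which AT5G44400 was chosen. Groups of 3 arrays were too small to look for single arrays that stood apart.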

How the results depend on the processing

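Of 19 combinations of a member and a comparison with at least 1 group not dim, 258 alternative values were computed. Of these, 245 kept their direction and their side of the threshold, 2 lost the call and 9 gained one. The other 2 changed sign without passing on either side: AT5G44400 on long-day MS against older soil without ATGE_9 replicate C (-0.032) and AT1G26420 with sucrose in later roots without ATGE_99 replicate C (0.014). No called value reversed. For sucrose in later roots, AT5G44400 passed the threshold with the filter at the 60th percentile (log2 difference 0.239), with the pseudocount (0.228) and with only the groups compared (0.239), and AT1G26390 with the pseudocount (0.512) and only the groups compared (0.585). For older soil against later plain GM roots, AT5G44400 ranged from 0.212 to 0.353 when arrays were left out in turn. For long-day MS against later GM sucrose roots, AT5G44400 was 0.296 with median centring, AT1G26410 was -0.592 with the pseudocount and -0.729 with only the groups compared, and AT1G26420 was -0.405 with only the groups compared. The pseudocount and the fit on 2 groups alone lessen the weight of the scatter among dim arrays by construction; the cause of the other shifts was not tested. The 9 combinations dim in both groups gave 120 values, of which 106 kept their side (2 with a changed sign), 10 lost a call and 4 gained one, and none is used here. Deviations of arrays with the same replicate letter correlated between -0.077 and 0.070. With the replicate letter as a block, 4052 probe sets passed between older and younger soil roots against 4081 without it, and AT1G26420, dim in both groups, came to adjusted p = 0.0495 in limma. The block changed no other member's call. With the 60th percentile filter some members and family genes were not tested.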
